A study of Mus musculus with 4 samples.

Results

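The 10 genes described here encode plasma membrane carriers of amino acids and taurine in newborn mouse epidermis, and they were taken by name: Slc6a6, Slc7a11, Slc7a5, Slc3a2, Slc1a4, Slc1a5, Slc7a1, Slc7a3, Slc38a1 and Slc38a2. Each matched 1 of the 54752 gene identifiers in the tables, and the rule uses only the names. Total RNA came from the epidermis of C57BL/6 pups at postnatal day 0. The mutant pups, 2 in number, were Skiv2l fl/fl K14-Cre, in which Cre driven by the keratin 14 promoter deletes the floxed Skiv2l gene in keratinocytes, and the 2 control pups were labelled Skiv2l ctl. In the study a control could carry 1 or 2 floxed alleles, and a heterozygous control could also carry K14-Cre. Which of these each control pup carried is not stated. Skiv2l encodes the helicase that feeds RNA into the cytoplasmic RNA exosome.

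Amino acids carry charges in body fluids and cross the plasma membrane mainly through carriers. Most carriers of the SLC1, SLC6 and SLC38 families use the sodium gradient to bring their substrates in, whereas those of the SLC7 family either carry cationic amino acids or pair with a glycoprotein heavy chain and exchange one amino acid for another. In epidermis this uptake supplies the synthesis of keratins and of the cornified envelope, and taurine serves as an osmolyte. Leucine and arginine are also sensed by mTORC1, the kinase complex that matches growth to nutrients. Several of the carriers are also known targets of ATF4, a transcription factor induced when amino acids are scarce.

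Values are FPKM, fragments scaled by the authors for transcript length and library size, so levels can be set side by side between genes as well as between pups. Differences were tested with limma on log2(FPKM + 1) over the 13609 protein-coding genes that exceeded an FPKM of 0.5 in 1 or more libraries, and a call means a Benjamini-Hochberg adjusted p under 0.05 over all of them. This scale understates the difference of a gene with a low FPKM. Of these genes, 34.4% were called, 8.99% as higher and 25.4% as lower in the mutants. Aligned sequence was 5.84 to 6.27 gigabases per library. Skiv2l itself was at 19.3 and 19.1 FPKM in Skiv2l ctl and at 10.8 and 8.56 in mutant pups (log2 difference -0.92, limma adjusted p = 0.00368). The median log2 difference over all tested genes was -0.20, and -0.03 after median scaling, in which the libraries are given equal medians, which moved the share of calls that were higher from 26.1% to 53.9%. Differences below are therefore best read against this shift. The exact permutation test of 2 pups against 2 cannot go below a two-sided p of 0.333, so the calls rest on the spread that limma shares across genes. They set the difference between genotypes against the spread between these pups, which 2 pups per genotype estimate poorly.

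Keratinocyte markers were abundant in every library, and some of them differed. Of 8 listed, Krt14 was called higher (1736 and 1812 against 7381 and 7312 FPKM, log2 difference 2.05, limma adjusted p = 0.000171), as were Dsp (0.71) and Perp (0.58). Krt1 was called lower (12721 and 13157 against 8246 and 9975, log2 difference -0.51, adjusted p = 0.0401), while Krt10, Krt5, Trp63 and Col17a1 were not called. Markers of other cell types moved as well. The summed FPKM of 6 leukocyte markers was 25.3 and 35.8 in Skiv2l ctl and 14.9 and 13.1 in mutant. Of the 5 tested, 3 were called lower, where 25.4% of all tested genes were, and Cd3e and Lyz2 were not called. Lyz2 was at 0.988 and 5.82 FPKM in Skiv2l ctl and at 3.40 and 2.86 in mutant pups. The sum of 5 erythroid markers was 134 and 125 against 62.0 and 80.7, and that of 6 dermal fibroblast markers, mostly Dcn, was 61.3 and 69.0 against 21.9 and 25.04. Of the 5 fibroblast markers tested, Dcn and Col1a2 were called lower, while Col1a1, Col3a1 and Pdgfra were not called. Pdgfra went the other way, at 0.299 and 0.250 against 0.789 and 0.668 FPKM, but it passed the filter on FPKM only through the mutant libraries. The 5 melanocyte markers summed to 47.5 and 54.4 against 50.6 and 63.5. The 4 Schwann cell markers summed to 19.5 and 15.2 against 20.8 and 22.9. Of the 3 tested, 1 was called higher (Mbp, limma adjusted p = 0.0317), where 8.99% of all tested genes were. The 4 adipocyte markers summed to 19.1 and 16.6 against 22.01 and 23.5, nearly all of it Lipe, which was called higher (adjusted p = 0.0431), while Adipoq was at 0 in every library. The 5 endothelial markers summed to at most 0.996 FPKM in any library and the 5 skeletal muscle markers to at most 0.849. In whole epidermis, a loss of cells of one type and a loss of RNA per cell cannot be told apart, and the part of these cell types in the differences below was not tested.

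Of the 10 transporters, 8 were called higher, 1 was called lower and 1 passed the threshold in neither direction. Over all tested genes, 8.99% were called higher. Because the 10 genes were listed with earlier results of these data known, the values over all genes are given for scale and are no test of the list. Slc7a3 passed the filter on FPKM only through the mutant libraries, so it had to differ, and without it the number is 7 of 9. The median log2 difference of the 10 was 0.79, beside -0.20 for all tested genes. Both mutant pups were above both controls for 8 of the 10, against 18.2% of tested genes, and below both for Slc1a4, against 55.3%. Slc7a3, which had to differ, is among these 8 and also counts in the median of 0.79. Summed over the 10 genes, the FPKM was 214 and 228 in Skiv2l ctl and 398 and 432 in mutant epidermis.

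**Figure D1:**
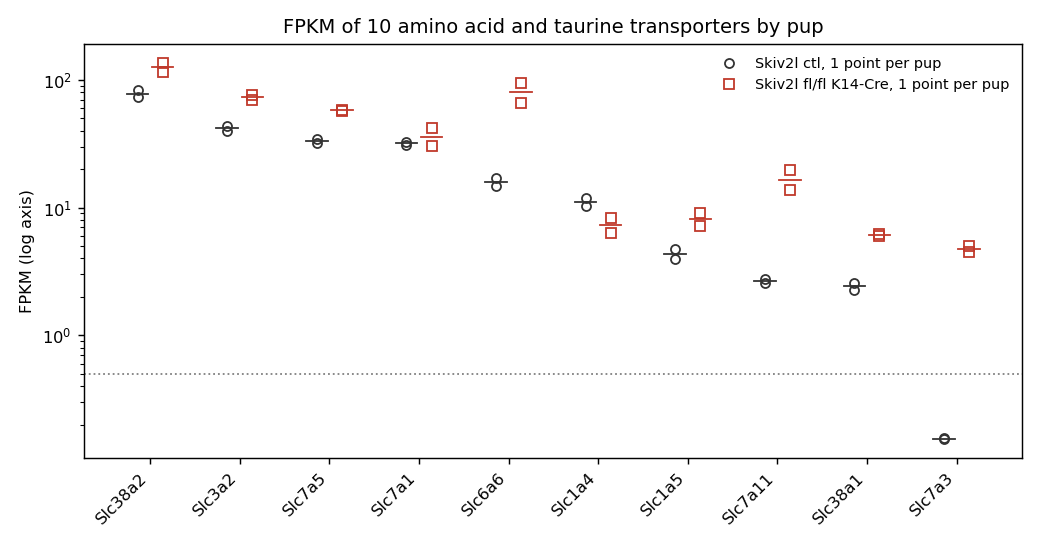
FPKM of each of the 10 transporters in the 4 pups on a log axis, ordered by the Skiv2l ctl mean. Circles are Skiv2l ctl pups, squares mutant (Skiv2l fl/fl K14-Cre) pups, short lines the mean of 2 pups, and the dotted line the filter at an FPKM of 0.5. The widest gaps between the genotypes are those of Slc7a3, Slc7a11 and Slc6a6, the Slc7a1 values overlap, and Slc1a4 is lower in both mutant pups.

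The taurine transporter Slc6a6 (ENSMUSG00000030096.8, chromosome 6, 91684053 to 91759066 on GRCm38, plus strand) imports taurine and beta-alanine together with sodium and chloride. Its FPKM was 14.7 and 16.9 in Skiv2l ctl and 66.4 and 93.7 in mutant pups. Both mutant pups were far above both controls, and the second was 1.41 times the first. The ratio of the means was 5.07, and the log2 difference was 2.25 (standard error 0.17, limma adjusted p = 0.000589). It ranked 100 among the 13609 genes. Without the filter on FPKM the adjusted p was 0.0501 at the same difference. An exon of Slc6a6 is overlapped on the other strand by 1 unclassified gene, Gm44981, and 0.497% of the 75-base stretches of its transcripts occur in another gene, mainly in Gm44981.

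Slc7a11 (ENSMUSG00000027737.10, chromosome 3, 49892526 to 50443614, minus strand) encodes the light chain that imports cystine in exchange for glutamate, and cystine is the source of cysteine for glutathione and, in melanocytes, for pheomelanin. It was at 2.78 and 2.55 FPKM in Skiv2l ctl and at 19.5 and 13.6 in mutant pups. The pup with less Slc6a6 was the one with more Slc7a11. The mean rose 6.21-fold, with a log2 difference of 2.24 (standard error 0.17, limma adjusted p = 0.000632). Melanocytes are a part of newborn epidermis, and of the 5 melanocyte markers Tyrp1 was called higher (2.68 and 3.74 against 5.20 and 7.92 FPKM, adjusted p = 0.0279) and the other 4 were not called.

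RefSeq promoters, 250 bases before to 50 after the start of transcription on GRCm38.p6, were at hand for 5 of the 10 genes (6 promoters): Slc7a11, Slc7a1, Slc1a4, Slc38a2 and Slc3a2. They were searched on both strands for TGATGNAA, the core of the composite site that ATF4 binds with a C/EBP partner. Of all 32851 promoters, 3.97% held this motif and 0.0700% held it 2 or more times. The Slc7a11 promoter held it 2 times, once on each strand, starting 66 and 47 bases before the start. The Slc1a4 promoter held it 1 time, across the start, and the promoters of the other 3 did not. The 120 bases before the Slc7a11 start (chr3:50443614-50443733, minus strand) and the 30 bases around the Slc1a4 start (chr11:20332699-20332728, minus strand) are shown with the motif in capitals.
Slc7a11: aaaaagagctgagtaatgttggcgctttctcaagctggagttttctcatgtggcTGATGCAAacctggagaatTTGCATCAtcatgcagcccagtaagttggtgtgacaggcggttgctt
Slc1a4: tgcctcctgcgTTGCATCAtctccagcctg
The motif was in 5 of 64 promoters of the tested genes in the lists used here, those of Slc7a11, Slc1a4, Chac1 and Slc7a7. Slc7a11 was called higher, Slc1a4 lower, and Chac1 and Slc7a7 in neither direction. The Slc1a4 call did not hold under median scaling or quantile normalization. Any part of the motif in these differences was not tested. Of the 6 member promoters, 2 held TGACNNNGC, the core of the antioxidant response element bound by NRF2 (Slc7a1 and Slc38a2), which 12.4% of all promoters hold. None held CACGTG, the E-box of MYC and TFE factors, or TGGAAA, the core of the tonicity element of NFAT5, which 7.15% and 21.4% of all promoters hold. A match describes these letters only and shows no binding.

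Slc3a2 (ENSMUSG00000010095.13, chromosome 19, 8706882 to 8723369, minus strand) encodes CD98, the heavy chain that brings several SLC7 light chains to the cell surface. It was at 43.3 and 39.9 FPKM in Skiv2l ctl and at 69.8 and 76.0 in mutant pups, with no overlap. The log2 difference was 0.79 (standard error 0.09, limma adjusted p = 0.00209).

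Slc7a5 (ENSMUSG00000040010.10, chromosome 8, 121881150 to 121907694, minus strand), the light chain that carries leucine and other large neutral amino acids, was at 32.2 and 34.1 FPKM in Skiv2l ctl and at 57.1 and 58.1 in mutant pups. Pups of one genotype were close together and the genotypes were apart. The log2 difference was 0.78 (standard error 0.08, limma adjusted p = 0.00157), the smallest standard error among the 10. Heavy chain and main light chain thus had ratios of the means of 1.75 and 1.74.

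The other light chains of SLC3A2 were Slc7a6, Slc7a7, Slc7a8 and Slc7a10. Slc7a6, an exchanger of cationic for neutral amino acids, was at 3.12 and 3.18 FPKM in Skiv2l ctl and at 3.22 and 5.04 in mutant pups, and was not called (log2 difference 0.28, 95% interval -0.17 to 0.73). Without the first mutant pup it was called higher (limma adjusted p = 0.0340). Slc7a8, another carrier of large and small neutral amino acids, was at 1.195 and 1.87 against 1.92 and 1.54, and Slc7a7 lay between 0.451 and 0.638 FPKM. Neither was called. Slc7a10 was below the filter, at 0.171 and 0.129 against 0.0354 and 0. The 6 light chains summed to 40.0 and 42.4 FPKM in Skiv2l ctl and to 82.2 and 79.0 in mutant pups. Divided by the FPKM of Slc3a2, the sums gave 0.923 and 1.06 in Skiv2l ctl and 1.18 and 1.04 in mutant, ranges that overlapped. The makeup of the sum differed. Slc7a11 was 6.96% and 6.00% of it in Skiv2l ctl and 23.7% and 17.2% in mutant, while Slc7a5 went from 80.5% and 80.4% to 69.4% and 73.6%. These ratios and shares were not tested.

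**Figure D2:**
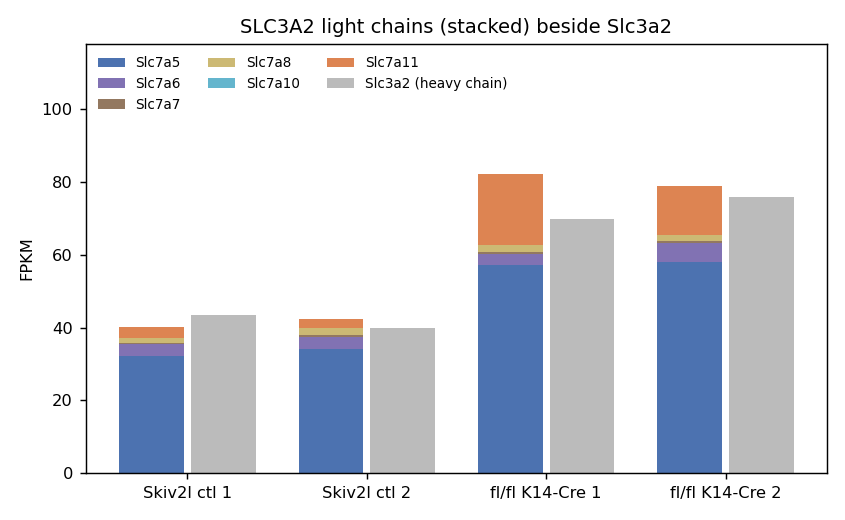
FPKM of the 6 light chains that pair with SLC3A2, stacked, beside the FPKM of Slc3a2 (grey) in each pup. Both bars are taller in the 2 mutant pups, the 2 bars of a pup stay close in height, and the Slc7a11 part is larger in mutant.

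Slc38a2 (ENSMUSG00000022462.7, chromosome 15, 96687392 to 96699730, minus strand) encodes a sodium-coupled carrier of small neutral amino acids such as alanine and glutamine. It had the highest FPKM of the 10 in both genotypes, with 72.8 and 83.2 in Skiv2l ctl and 116 and 136 in mutant pups. The log2 difference was 0.68 (standard error 0.11, limma adjusted p = 0.00748). Without the first Skiv2l ctl pup the adjusted p was 0.0740. Its neighbour on chromosome 15, Slc38a1 (ENSMUSG00000023169.15, 96571418 to 96642913, minus strand), encodes a close relative with similar substrates. It was far lower than Slc38a2 in Skiv2l ctl, at 2.58 and 2.27 FPKM, and reached 5.98 and 6.26 in mutant pups. The log2 difference was 1.05 (standard error 0.12, limma adjusted p = 0.00192), and the groups were well apart.

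Another gene of this family moved the other way. Slc38a4, which carries small neutral and some cationic amino acids, was at 55.6 and 59.2 FPKM in Skiv2l ctl and at 25.5 and 26.9 in mutant pups (log2 difference -1.10, limma adjusted p = 0.00062). The 3 genes summed to 131 and 145 FPKM in Skiv2l ctl and to 147 and 169 in mutant. Within the sum, Slc38a4 went from 42.5% and 40.9% to 17.3% and 15.9%, and Slc38a2 from 55.6% and 57.5% to 78.6% and 80.4%. Slc38a3, a carrier of glutamine, histidine and asparagine, fell from 4.55 and 3.25 FPKM to 0.178 and 0.255 (log2 difference -1.998, limma adjusted p = 0.00085). This gene passed the filter on FPKM only through the control libraries, so it had to differ.

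Slc1a5 (ENSMUSG00000001918.17, chromosome 7, 16781340 to 16798274, plus strand) and Slc1a4 (ENSMUSG00000020142.12, chromosome 11, 20302180 to 20332713, minus strand) encode exchangers of small neutral amino acids, the first also of glutamine and the second of serine, alanine, cysteine and threonine. Slc1a5 was at 3.97 and 4.73 FPKM in Skiv2l ctl and at 9.003 and 7.16 in mutant pups (log2 difference 0.76, standard error 0.14, limma adjusted p = 0.0113). Its call was lost without the first (adjusted p = 0.107) or the second Skiv2l ctl pup (0.0685). Slc1a4 was at 10.3 and 11.9 FPKM in Skiv2l ctl and at 8.22 and 6.33 in mutant pups. It was the 1 member called lower, where 25.4% of all tested genes were, with a log2 difference of -0.55 (standard error 0.14, limma adjusted p = 0.0305). That call did not hold under median scaling (-0.36, adjusted p = 0.102) or quantile normalized (-0.38, adjusted p = 0.0955), nor without either control (0.113 and 0.197) or the second mutant pup (0.0817). The 2 genes summed to 14.3 and 16.6 FPKM in Skiv2l ctl and to 17.2 and 13.5 in mutant, ranges that overlapped. Slc1a5 was 27.9% and 28.5% of the sum in the controls and 52.3% and 53.1% in the mutant pups.

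Slc7a1 (ENSMUSG00000041313.14, chromosome 5, 148327410 to 148399904, minus strand) encodes the widespread carrier of arginine and lysine. It was at 30.9 and 32.6 FPKM in Skiv2l ctl and at 41.7 and 30.3 in mutant pups, so 1 pup lay above both controls and the other below. The log2 difference was 0.16, with a 95% interval of -0.21 to 0.53 (limma adjusted p = 0.435). Without the first mutant pup it was -0.07 (adjusted p = 0.587), and without the second it was 0.38 and was called (adjusted p = 0.0377). Slc7a3 (ENSMUSG00000031297.14, chromosome X, 101079210 to 101086020, minus strand) encodes a cationic carrier known mainly from brain. It was at 0.155 and 0.156 FPKM in Skiv2l ctl and at 4.997 and 4.51 in mutant pups. The log2 difference was 2.32 (standard error 0.13, limma adjusted p = 0.000235) and 4.25 with a pseudocount of 0.1 in place of 1, since the control level is far below 1. None of the 75-base stretches of the Slc7a1 and Slc7a3 transcripts occurs in another gene, and the exons of neither overlap another gene.

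Slc7a2, which encodes another cationic carrier of the family, fell from 5.67 and 6.94 FPKM in Skiv2l ctl to 2.38 and 2.32 in mutant (log2 difference -1.12, limma adjusted p = 0.00233). The adjusted p was 0.0547 without the filter, and on coverage per aligned gigabase the difference was -0.33. Of the sum of the 3 cationic carriers, 36.7 and 39.7 FPKM in Skiv2l ctl and 49.1 and 37.1 in mutant, Slc7a1 made up 81.6% to 85.0% in every pup. Slc7a2 went from 15.4% and 17.5% to 4.84% and 6.25%, and Slc7a3 from 0.422% and 0.394% to 10.2% and 12.2%.

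**Figure D3:**
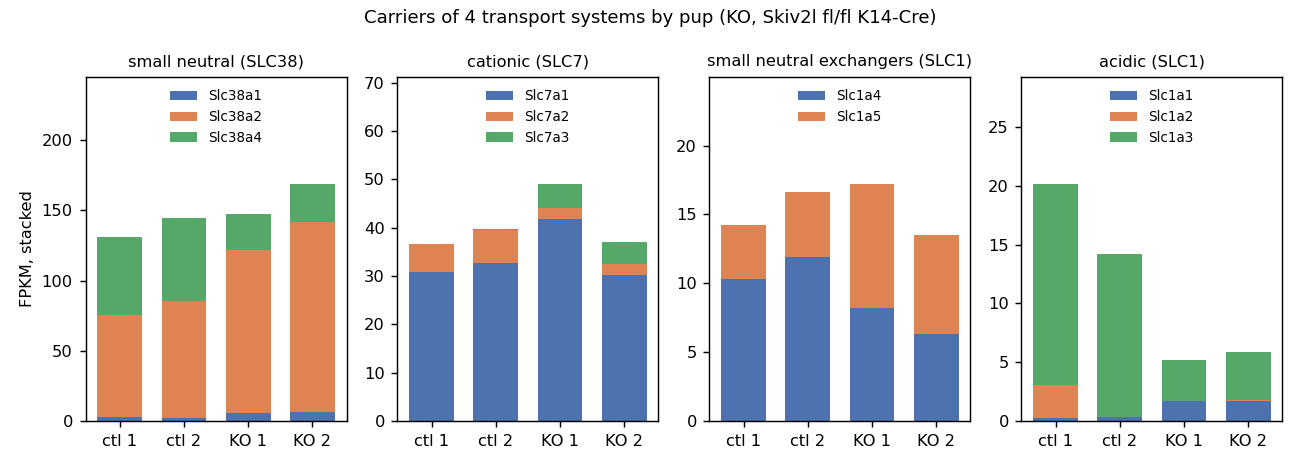
FPKM of the carriers of 4 transport systems in each pup, stacked, with a linear axis per panel (ctl, Skiv2l ctl; KO, Skiv2l fl/fl K14-Cre). Slc38a4, Slc1a4 and Slc7a2 take a smaller part of their bars in the 2 KO pups. Slc7a1 is the main part of the cationic bar in every pup. Bar heights overlap between the genotypes for the cationic carriers and the small neutral exchangers, and those of the SLC38 carriers are higher in both KO pups. The acidic system is lower in both KO pups.

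In Skiv2l ctl the order of levels was Slc38a2, Slc3a2, Slc7a5, Slc7a1, Slc6a6, Slc1a4, Slc1a5, Slc7a11, Slc38a1 and Slc7a3, from a mean of 78.0 to 0.156 FPKM. In that order the ranges of Slc7a5 and Slc7a1, and of Slc7a11 and Slc38a1, overlapped. In mutant epidermis Slc6a6 stood second, with a mean of 80.1 ± 19.4 FPKM (SD, n = 2), and its range overlapped that of Slc3a2. Slc7a11 stood sixth, at 16.6 ± 4.17 (SD, n = 2), above Slc1a5 and Slc1a4, whose ranges overlapped. Slc7a3 was last in both genotypes. Between the 2 mutant pups, 5 of the genes were higher in the second pup and 5 in the first. The largest such gaps were 1.41 times for Slc6a6 and 0.698 times for Slc7a11, each smaller than the gap between the genotypes.

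Over the 4 libraries, the 3 tested genes whose centred log2(FPKM + 1) profile was nearest to that of Slc6a6 were Icosl, Adm2 and Stac2, at Euclidean distances of 0.0639, 0.112 and 0.116. Icosl, a costimulatory ligand, went from 1.47 and 1.98 to 9.72 and 13.96 FPKM. Nearest to Slc7a11 were Cemip, Bcat1 and Tinagl1, at distances of 0.157, 0.162 and 0.163. Bcat1, the cytosolic transaminase of branched-chain amino acids, went from 0.0321 and 0.0155 to 4.09 and 2.74 FPKM, and Cemip, which takes part in hyaluronan breakdown, from 2.75 and 2.84 to 22.3 and 15.5. With 4 libraries in 2 groups, these distances describe the profile only.

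Of 37 other plasma membrane amino acid transporters on a list, 20 passed the filter, 17 did not, and 6 of those 17 were listed at 0 in all libraries. Among the 20, 5 were called higher and 7 lower, where 8.99% and 25.4% of all tested genes were. The 5 include Slc1a1, which passed the filter only through the mutant libraries, and the 7 include Slc38a3, which passed only through the controls. The median log2 difference was -0.13, close to the -0.20 of all genes. Slc6a20a, which carries proline, had the largest rise, from 2.47 and 2.77 FPKM to 22.5 and 18.9 (log2 difference 2.58, standard error 0.12, limma adjusted p = 0.000133). It shares 22.2% of its 75-base stretches with other genes, mainly its neighbour Slc6a20b, and its exons overlap those of Ccr9 on the other strand. Slc6a9, the glycine transporter of many tissues, rose from 6.22 and 6.23 FPKM to 14.4 and 17.8 (log2 difference 1.24, limma adjusted p = 0.00136, and 0.0502 without the filter), and 24.4% of its stretches are shared, mainly with Ccdc24. Slc43a2, a carrier of large neutral amino acids, was at 3.03 and 3.80 against 5.98 and 8.37 FPKM, with an adjusted p of 0.0135 by limma that was 0.116 and 0.0726 without the first or the second control.

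The carriers of glutamate and aspartate split. Slc1a3 fell from 17.1 and 13.8 FPKM in Skiv2l ctl to 3.49 and 4.11 in mutant (log2 difference -1.77, standard error 0.14, limma adjusted p = 0.000635). Slc1a1, which also takes up cysteine, rose from 0.289 and 0.294 to 1.69 and 1.72 FPKM (log2 difference 1.07, limma adjusted p = 0.00298). It too passed the filter only through the mutant libraries, and 30.4% of its stretches occur in other genes, mainly 4430402I18Rik on the other strand, so its values are uncertain. Slc1a2, named here after its values were seen, was at 2.80 FPKM in the first control and at 0.0530 in the second, and at 0.0354 and 0.0610 in the mutant pups, so its level in Skiv2l ctl rests on 1 pup.

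**Figure D4:**
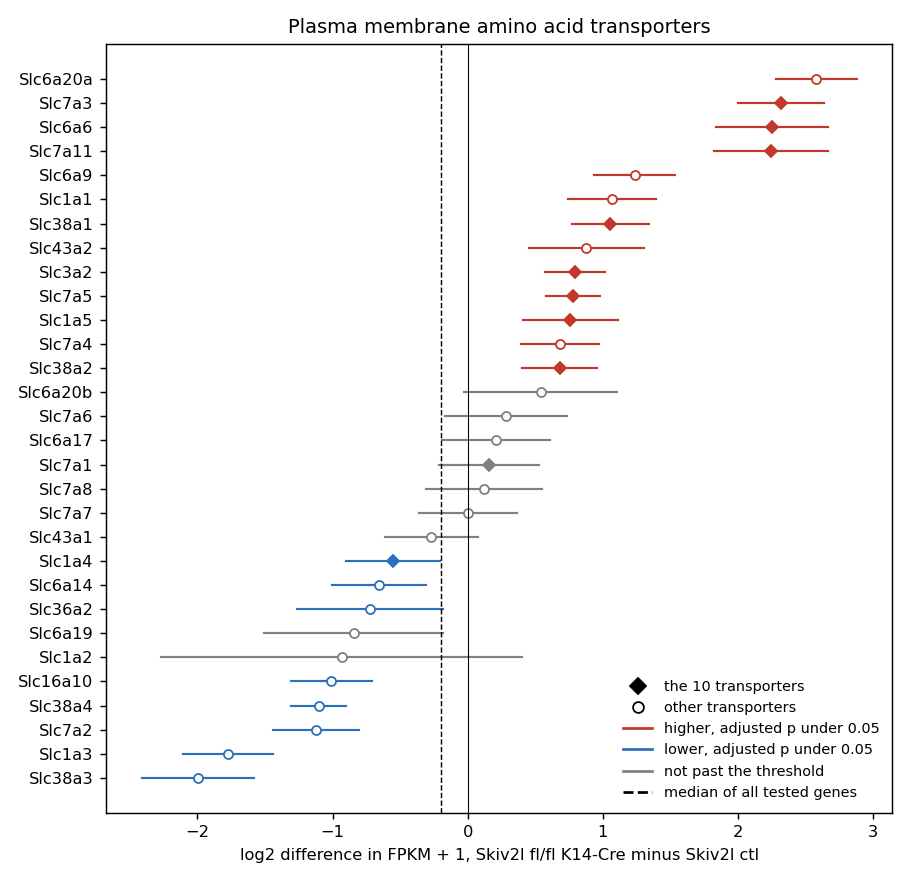
Log2 difference in FPKM + 1 with its 95% interval from limma for the 10 transporters (diamonds) and the 20 other plasma membrane amino acid transporters tested (circles). Red is called higher, blue called lower and grey neither, and the dashed line is the median of all tested genes at -0.20. Of the diamonds, 8 are red, Slc1a4 is blue and Slc7a1 is grey, while the circles lie on both sides.

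All 10 listed amino acid carriers of lysosomes and other inner membranes passed the filter. Of these, 0 were called higher, where 8.99% of all tested genes were, and 2 were called lower, where 25.4% were, at a median log2 difference of -0.02. By limma, 3 were higher and 2 lower at an unadjusted p under 0.05, a threshold for which all genes were not counted. Under median scaling 3 were called higher, as were 1894 of all 13609 tested genes. Mfsd12, which imports cysteine into melanosomes and lysosomes, was at 7.09 and 7.02 FPKM against 3.86 and 3.85 (log2 difference -0.73, limma adjusted p = 0.00428, and 0.0669 and 0.0640 without the first or the second control), and 22.3% of its stretches are shared with other genes. Slc38a10 was at 23.7 and 26.4 against 20.6 and 19.2 FPKM (log2 difference -0.32, limma adjusted p = 0.0470), and this call was lost without any 1 of the 4 libraries (adjusted p 0.0564 to 0.248), with the replicate block (0.0609), without a trend (0.0738), under median scaling (0.389) and under quantile normalization (0.165). Slc38a9, a lysosomal arginine sensor for mTORC1, was at 8.78 and 7.65 against 11.4 and 9.65 FPKM and was not called (log2 difference 0.32, 95% interval 0.02 to 0.62, adjusted p = 0.0896).

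Genes of taurine synthesis and of osmolyte handling were listed beside Slc6a6, 21 in all, of which 16 passed the filter. Of these, 3 were called higher and 4 lower, where 8.99% and 25.4% of all tested genes were. The median log2 difference was -0.17, beside -0.20 for all tested genes. Csad, the decarboxylase that makes hypotaurine in taurine synthesis and whose exons overlap those of Zfp740 on the other strand, fell from 27.9 and 27.0 FPKM to 17.9 and 18.2 (log2 difference -0.58, limma adjusted p = 0.00448, and 0.0629 and 0.0547 without the first or the second control). Fmo1, a flavin monooxygenase that can oxidize hypotaurine to taurine, fell from 2.44 and 2.30 to 0.382 and 0.501 FPKM (log2 difference -1.23, limma adjusted p = 0.00191), a difference of -2.20 with a pseudocount of 0.1 and of -0.29 on coverage per aligned gigabase. Ado, which makes hypotaurine from cysteamine, was at 11.3 and 11.7 against 9.70 and 9.69 FPKM and was not called. Cells release taurine through the volume-regulated anion channel when they swell. Its obligatory subunit Lrrc8a rose from 20.4 and 19.1 to 30.6 and 31.3 FPKM (log2 difference 0.62, limma adjusted p = 0.00387). Without the second control the log2 difference of Lrrc8a was 0.58. However, 65.0% of its stretches are shared with other genes, mainly the overlapping gene Gm28035. Lrrc8b fell from 12.8 and 14.6 to 4.0003 and 4.81 FPKM (log2 difference -1.45, limma adjusted p = 0.000865), and Lrrc8c rose from 1.12 and 1.40 to 3.20 and 2.42 (log2 difference 0.75, limma adjusted p = 0.0155). For Lrrc8c that value was 0.114 and 0.0768 without the first or the second control and 0.0505 without the first mutant pup. Slc16a6, which carries taurine in some tissues, was at 16.2 and 16.5 against 13.6 and 12.1 FPKM (log2 difference -0.33, limma adjusted p = 0.0483). Its call was lost without either control (0.193 and 0.217) or the second mutant pup (0.115), with the replicate block (0.0612), under median scaling (0.365) and under quantile normalization (0.242), and 20.2% of its stretches are shared, mainly with Amz2 on the other strand.

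Among the osmolyte genes, Hspa4l, a chaperone induced by osmotic stress, was at 2.63 and 3.29 FPKM in Skiv2l ctl and at 7.59 and 12.9 in mutant (log2 difference 1.47, limma adjusted p = 0.00623, and 0.0752 and 0.0570 without the first or the second control). Slc5a3 and Akr1b3, known targets of the tonicity factor NFAT5, were not called. Slc5a3, which imports myo-inositol, was at 1.22 and 1.17 against 1.61 and 1.99 FPKM. Its log2 difference was 0.35 (95% interval 0.007 to 0.68, limma adjusted p = 0.1002). Akr1b3, the aldose reductase that makes sorbitol, was at 13.99 and 14.99 against 16.0 and 17.1 FPKM. The log2 difference of Akr1b3 was 0.18 (95% interval -0.05 to 0.41, limma adjusted p = 0.174). The creatine transporter Slc6a8, which uses the same ion gradients as Slc6a6, was at 57.8 and 59.4 against 58.2 and 54.0 FPKM, with a log2 difference of -0.06 (95% interval -0.26 to 0.14). Nfat5 itself was at 47.2 and 44.1 against 39.3 and 44.8 FPKM.

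Beside cystine uptake, 11 of 12 listed genes of cysteine and glutathione metabolism passed the filter. Of the 11, 1 was called higher and 2 lower, where 8.99% and 25.4% of all tested genes were. The median log2 difference was -0.06, beside -0.20 for all tested genes. Cth, which releases cysteine from cystathionine, rose from 1.36 and 0.974 to 5.26 and 4.75 FPKM (log2 difference 1.47, limma adjusted p = 0.00123). Cbs, which makes cystathionine in the step before, was at 7.71 and 9.69 against 3.39 and 5.38 FPKM (log2 difference -0.87, limma adjusted p = 0.0218). That value was 0.0577 under median scaling, 0.0605 under quantile normalization, and 0.0912 and 0.157 without the first or the second control. Ggct, which cleaves gamma-glutamyl dipeptides, was at 69.5 and 82.2 against 46.8 and 31.9 FPKM (log2 difference -0.95, limma adjusted p = 0.0124, and 0.0706 and 0.106 without the first or the second control). The subunits of glutamate-cysteine ligase, the rate-limiting enzyme of glutathione synthesis, were not called: Gclc was at 7.43 and 7.21 against 8.14 and 11.0 FPKM, and Gclm at 2.92 and 3.68 against 3.70 and 3.64.

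**Figure D5:**
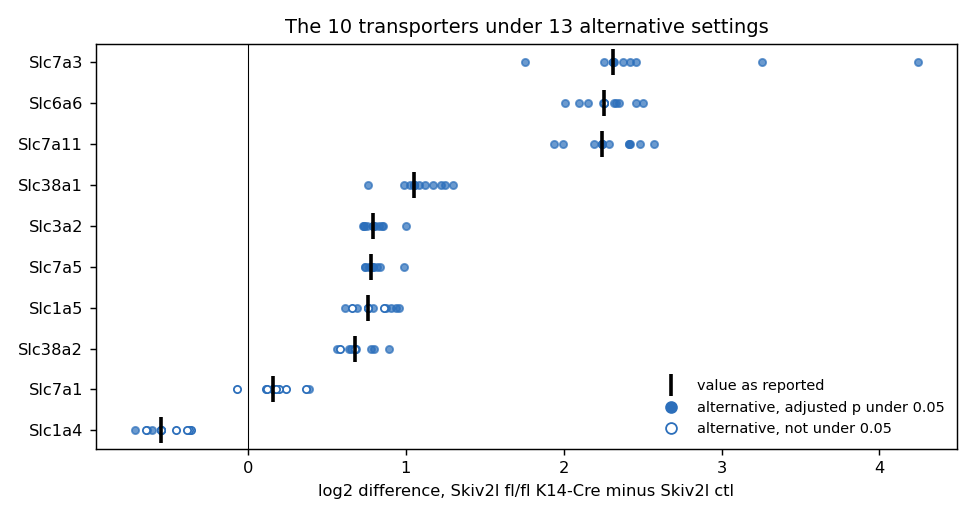
Log2 difference of each of the 10 transporters as reported (black bar) and under 13 alternative settings (circles, filled where the adjusted p was under 0.05). Slc7a1 is the only one of the 10 whose circles lie on both sides of 0, and the Slc7a3 values reach 4.25 because its control level is low.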

How the data were processed

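Total RNA of 4 epidermis samples, 2 pups per genotype, was sequenced, and the authors ran an RNA-seq workflow of their institution. The aligner, its version and the strand setting are not given in the sources used here. The authors deposited 1 table per library with FPKM and TPM, both scaled for length and depth, and the coverage signal, which is the mean read depth. The build per the labels is GRCm38. Of 54752 identifiers, 54029 have the same coordinates in GENCODE M21, which gave the biotype of 21921 protein-coding genes. FPKM values were summed per identifier. Aligned gigabases were read as the most common ratio of coverage to FPKM. Without counts, no counting error was computed.

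Following the filter of the study, protein-coding genes had to exceed an FPKM of 0.5 in 1 or more libraries. Their log2(FPKM + 1) values were compared between genotypes with limma 3.58.1 (R 4.3.3, moderated with a trend in eBayes). Tests were two-sided and p-values were adjusted after Benjamini and Hochberg over all 13609 genes. The method was also run on simulated data in which genes of similar level had a similar spread. That run checks the code and is no test of the calls. The members and lists were chosen with earlier results of these data known. Named genes are the 10 members, the SLC3A2 light chains, the called genes of each other list with the largest differences (up to 4 per direction), and the 3 genes nearest to Slc6a6 and to Slc7a11. Other listed genes (Slc38a9, Ado, Slc5a3, Akr1b3, Slc6a8, Nfat5, Gclc and Gclm), the sums over carriers of one system and the motifs were chosen after values were seen, and the sums have no test. Exon overlaps and shared 75-base stretches come from GENCODE M21, promoters from RefSeq.

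Alternatives were a pseudocount of 0.1, other filters, the replicate number as a block, TPM in place of FPKM, quantile normalization, median scaling, leaving out each library, eBayes with no trend, and coverage per aligned gigabase, which was added after seeing the data.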

Additional observations from a re-analysis of the deposited data

Results flagged for a closer look

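Gm44981, a gene of unclassified type on the strand opposite to Slc6a6, lies on an exon of that gene and was outside the comparison of protein-coding genes. It was at 0.621 and 0.694 FPKM in Skiv2l ctl and at 3.48 and 2.19 in mutant pups, with a mean of 2.83 in the latter, above both controls. Slc6a6 was higher in the second mutant pup and Gm44981 in the first. Whether the counting used strand is not given in the sources used here, so the value of Gm44981 is uncertain. Of the 8659 75-base stretches of Slc6a6, 43 are shared with another gene, and the mean of Slc6a6 in the mutant pups was 80.1 FPKM.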

How the results depend on the processing

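With 2 pups per genotype, the number of pups limits every value, and low levels such as those of Slc7a3, Slc1a1, Slc38a3 and Fmo1 depend on the pseudocount. Of 1223 genes called higher and 3455 called lower, 475 and 927 were called without a filter, 1894 and 1623 with median scaling, and 1917 lower with quantile normalization. Leaving out 1 library gave 497 to 1146 higher and 805 to 3135 lower, with the lowest counts without a control. A pup left alone in its genotype was taken to vary like the other 2. Of the 10 transporters, 8 were called higher, 5 without a filter (not Slc6a6, Slc1a5 and Slc38a2) and 6 to 9 without 1 library. The 1 called lower (Slc1a4) was 0 without a filter, with median scaling and with quantile normalization, and 0 to 1 without 1 library. Of the other plasma membrane transporters, 2 were called higher and 3 lower without a filter, and 3 to 6 higher and 5 to 7 lower without 1 library. Of the taurine and osmolyte genes, 1 was called higher without a filter and 5 with quantile normalization, and 0 to 3 higher and 2 to 6 lower without 1 library. The ratio of light chains to Slc3a2 was 0.993 in Skiv2l ctl (0.923 to 1.06 without 1 library) and 1.11 in the mutants (1.04 to 1.18). The log2 difference of Slc7a1 ran from -0.066 (without the first mutant pup) to 0.384 without 1 library, that of Slc7a8 from -0.0758 (without the first control) to 0.311, and that of Slc7a7 from -0.0856 (without the second mutant pup) to 0.0888. Slc7a7 was also below 0 with a pseudocount of 0.1 (-0.0043), TPM (-0.0288), coverage (-0.0082) and without the first control (-0.0246). Slc7a1, Slc7a7 and Slc7a8 were not called as reported. No other named gene changed direction in the alternatives run, which left out Skiv2l, the markers and the genes named after their values were seen. Without a filter the calls of Slc1a4, Slc6a9, Slc43a2, Slc7a2, Slc38a10, Hspa4l, Lrrc8c, Slc16a6, Ggct, Cbs, Icosl and Stac2 were also lost (adjusted p 0.0502 to 0.178). With a pseudocount of 0.1 the log2 difference of Slc7a3 was 4.25, of Slc1a1 2.20, of Slc38a3 -3.65 and of Fmo1 -2.20. On coverage per aligned gigabase it was -1.13 for Slc38a3, -1.15 for Slc1a3, -0.33 for Slc7a2, 0.34 for Lrrc8c, -0.29 for Fmo1 and -0.37 for Csad, all still called, and Slc1a1 was at 1.62 with TPM. The causes were not tested.

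Samples with the same replicate number did not deviate together (r = -0.08 across 13609 genes), and the number is not stated to mark a litter or batch. With the replicate block, 1264 genes were called higher and 3393 lower, and of the 10 transporters again 8 and 1.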
